A study of Mus musculus with 6 samples.

Results

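Blood and lymphatic endothelial genes were followed on 6 two-colour microarrays of mouse ventral prostate. A fixed list of 39 genes that mark or serve endothelial cells was taken, every probe carrying one of these names was collected, and the probe with the highest mean intensity over both channels and all arrays stood for its gene. All 39 genes were found, with 61 of the 41174 probes on the array. Of these, 37 genes were tested through their brightest probe (51 member probes in all, of 27858 tested), and Flt4 and Tie1 were not, because their probes were too dim.

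All mice were of the FVB strain, and every sample was RNA of ventral prostate. Red dye (Cy5) carried fl26 mice, a line transgenic for 15-LOX2, at 2.5 months, svb9 mice, a line transgenic for the 15-LOX2 splice variant b, at 2.5 months, or old wild type mice at 15 months. Green dye (Cy3) carried young wild type mice of 2.5 months on every array. Each red group has 2 arrays, described as hybridizations of independent sample sets, and each RNA was a pool, of 3 mice per the sample labels or of 6 mice per the design text. The sources used here do not give the promoter that drives either transgene, and each transgene is represented by a single line. Because the dyes were not swapped, dye and group cannot be told apart against young wild type, whereas dye is common to all red groups. In whole tissue, fewer cells of a type and less RNA per cell cannot be told apart.

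Endothelial cells line blood and lymphatic vessels. Blood endothelium is held together by VE-cadherin and claudin junctions, grows and is kept quiescent through VEGF and angiopoietin receptors, and depends on ETS and SOXF transcription factors. Lymphatic endothelium is specified by Prox1 and carries Lyve1, Pdpn and the receptor Flt4. In the prostate, vessels run in the stroma between the glands. Several of the listed genes are also used by other cells: in the mouse, Lyve1, Stab1 and Cd93 are found on macrophages or other myeloid cells, Ly6c1 lies beside a close relative used by monocytes, and Pdpn is also made by fibroblasts and some epithelia.

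The listed genes were mostly dim, and how many could be seen differed between arrays of one group. In the red channel 37 and 25 of 39 members stood well above background on the fl26 arrays, 33 and 19 on the svb9 arrays, and 3 and 15 on the old wild type arrays. In the green channel, young wild type prostate gave 34 to 38 members. Over all probes the red channel ran the same way, with 65.9% and 42.8% of probes above background in fl26, 67.6% and 35.5% in svb9, and 7.82% and 33% in old wild type, against 60.3% to 73.8% in the green channel. Both arrays of a group showed 25 members in fl26 and 19 in svb9, but only Cav1, Cd34 and Ly6c1 in old wild type. The defining markers were present in young wild type but weak: Pecam1, Cdh5, Kdr, Esam and Cldn5 were above background in green on all 6 arrays, Tek on 5 and Tie1 on 2. The luminal ventral prostate genes Pbsn and Sbp were above background in red on all 6 arrays.

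**Figure D1:**
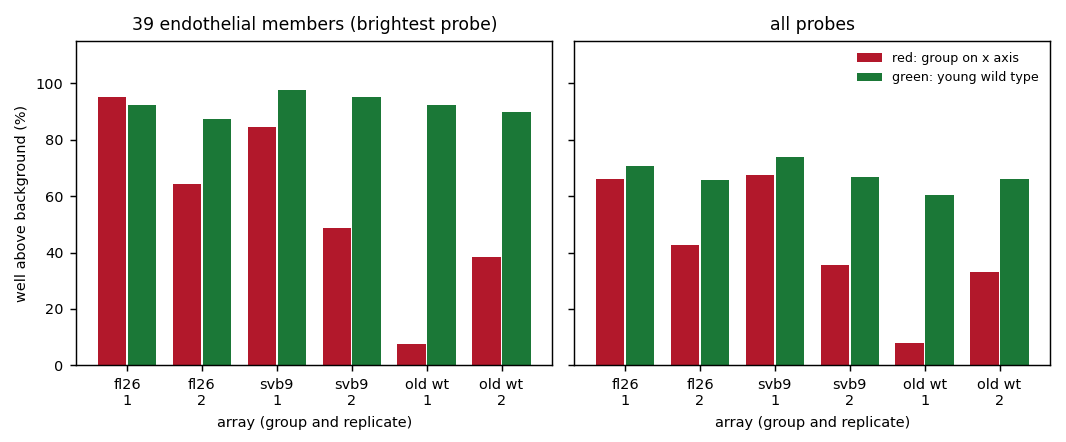
Share of the 39 endothelial members (left) and of all probes (right) well above background on each array (x axis, group and replicate), in percent (y axis), in the red channel (the group) and the green channel (young wild type). Red members fell short on old wild type array 1, with 7.69% against 92.3% in green, and all probes did likewise, with 7.82% against 60.3%.

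Values below are log2 ratios of the red group over young wild type, and fits are group means with their standard error from limma over all 6 arrays (2 arrays a group). An adjusted p is Benjamini-Hochberg over all tested probes, and a probe counts as called under 0.05. P-values measure only the spread between these pools. An offset of 50 intensity units (5.64 on the log2 scale) was added to every signal, so that ratios of members with a level near 6 are drawn towards 0.

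Against young wild type, the fl26 prostate gave 1 called member probe of 51, a probe of Ly6c1, where 0.0503% of all tested probes were called. Svb9 gave no called member probe (0% of all probes), nor did old wild type (0%) or the difference of fl26 and svb9 (0%). At an unadjusted p under 0.05, limma gave 9 of 51 member probes for fl26, where 2857 of all 27858 tested probes passed. It gave 1 member probe for svb9 (1254 of 27858 over all probes) and 6 for the old mice (3276 of 27624). For fl26 minus svb9 it gave 5 (614 of 27858). With the replicate number as a block, 4 member probes were called in fl26 (4.19% of all probes were then called) and 1 in old wild type (5.4% of all probes), and with the date of image extraction as a term 3 were called in fl26 (0.808% of all probes).

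As a group the members were shifted on a single fl26 array. On fl26 array 1 their median log2 ratio was 0.23, with 34 of 37 above 0, and on fl26 array 2 it was -0.01, with 18 of 37 above 0. The svb9 arrays gave medians of -0.01 and -0.05, with 16 and 12 members above 0, and the old wild type arrays -0.04 and -0.08, with 16 and 14. Over the brightest probes of all genes the medians lay between -0.04 and 0.01 on the 6 arrays. The group medians were 0.08 in fl26 (27 of 37 above 0), -0.02 in svb9 (16 of 37) and -0.04 in old wild type (13 of 37), beside all-gene medians of 0.00, -0.00 and -0.03. The fl26 median was 0.23 without array 2 and -0.01 without array 1, so it rests on array 1. It also moved with the processing, to 0.05 with no background correction, 0.15 with the deposited Feature Extraction log ratios, 0.15 with only probes above background in both channels of both fl26 arrays, and 0.25 with each array centred on its median, where the all-gene median was itself 0.15.

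**Figure D2:**
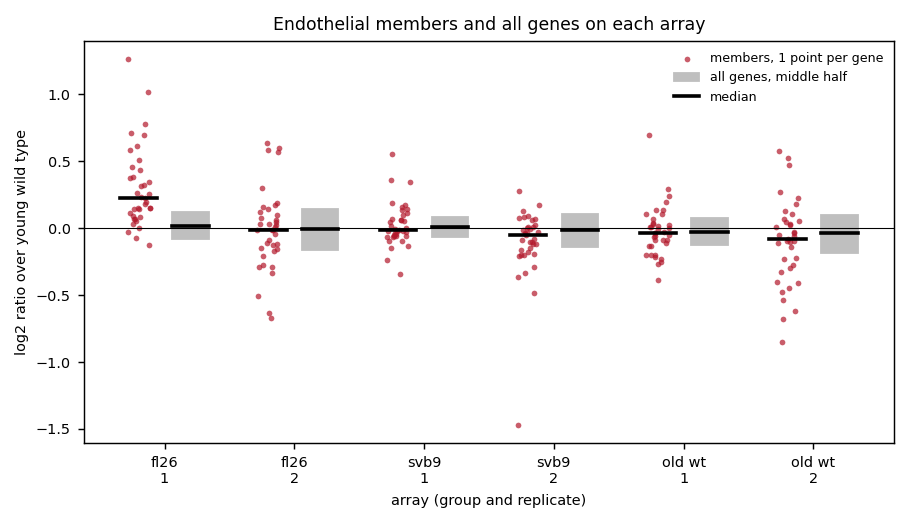
Log2 ratio over young wild type (y axis) on each array (x axis, group and replicate): red points are the 37 tested members, grey boxes span the interquartile range of all genes, and black lines are medians. The members' median stands above the grey box on fl26 array 1 (0.23) and lies near 0 elsewhere, with Ramp2 lowest on svb9 array 2.

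Agreement between the arrays of a group was modest. In fl26, 16 of 37 members were above 0 on both arrays, where 28.4% of all genes were, and Esam alone was below 0 on both, where 26.1% of all genes were. In svb9, 6 members were above 0 on both arrays (28.6% of all genes) and 15 were below 0 (28.2%). In old wild type, 7 were above 0 (22.9%) and 14 below 0 (36.8%). The members above 0 on both fl26 arrays were Angpt2, Calcrl, Cd93, Cldn5, Egfl7, Gpihbp1, Icam2, Ly6c1, Lyve1, Pdpn, Prox1, Ptprb, Ramp2, Sox17, Sox18 and Stab2.

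**Figure D3:**
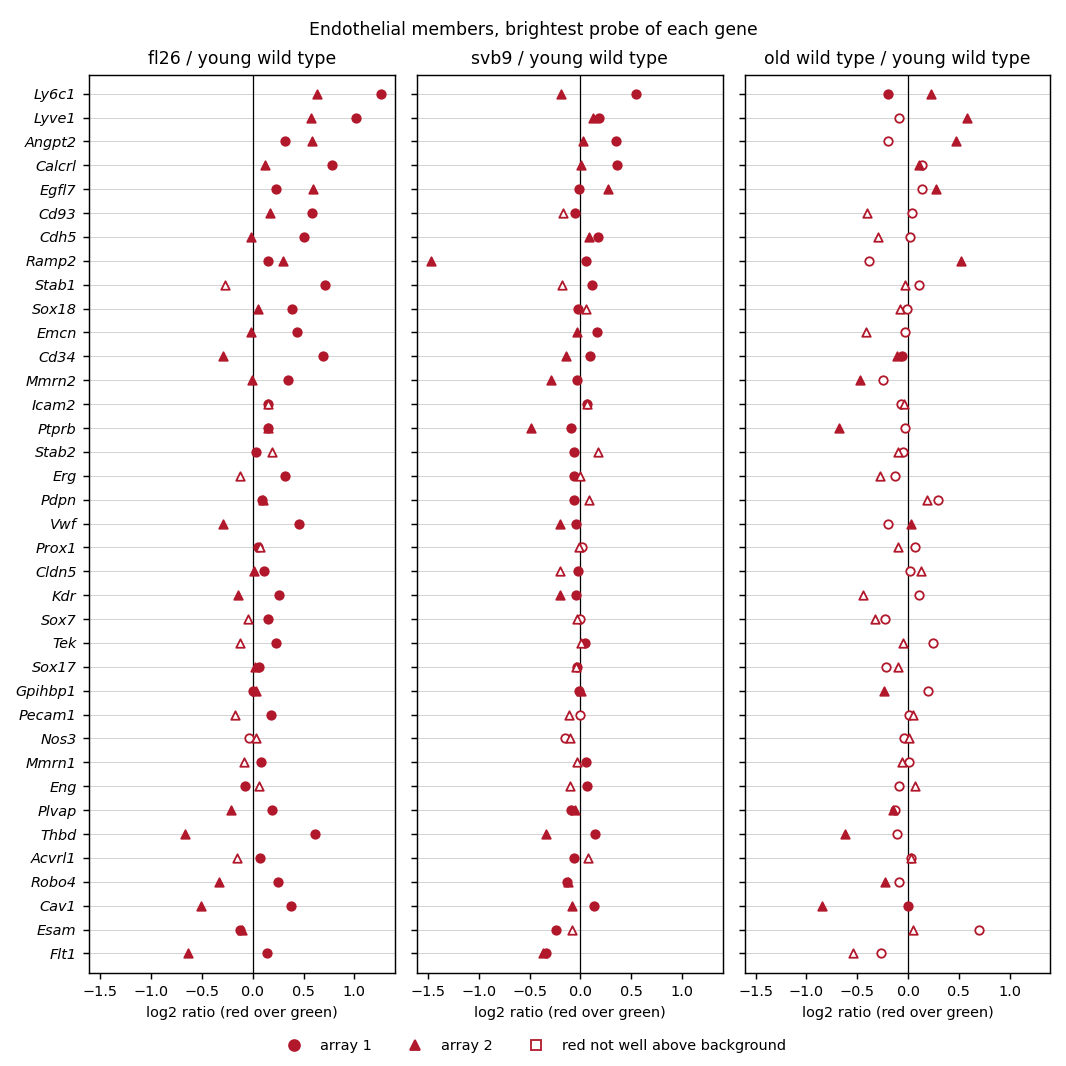
Log2 ratio over young wild type (x axis) of the 37 tested members (rows, ordered by the fl26 mean) in fl26, svb9 and old wild type, with a circle for array 1, a triangle for array 2 and open symbols where red was not well above background. Ly6c1 and Lyve1 have the highest fl26 means, at 0.95 and 0.79, and most old wild type symbols are open.

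Among surface glycoproteins, Ly6c1 moved most. Ly6c1 (chromosome 15) encodes a GPI-anchored protein of capillary endothelium and some leukocytes. Its less bright probe read 1.03 and 1.39 in fl26, 0.51 and 0.50 in svb9 and 0.36 and 0.37 in old wild type. All arrays were above young wild type, and both fl26 arrays stood above the other 4. On old wild type array 1, however, the red signal of this probe was not well above background. The fl26 mean of 1.21 ± 0.10 (SE), 2.31-fold, passed the test (adjusted p = 0.0312), while svb9 at 0.50 ± 0.10 (adjusted p = 0.979) and old wild type at 0.37 ± 0.10 (adjusted p = 0.262) did not.

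The brightest Ly6c1 probe read 1.26 and 0.64 in fl26, 0.55 and -0.19 in svb9 and -0.20 and 0.22 in old wild type. Both fl26 arrays were again the highest, but the svb9 and old wild type arrays straddled 0, unlike on the other probe. The fl26 mean was 0.95 ± 0.22 (adjusted p = 0.285), called only with the replicate block (adjusted p = 0.0384) or the extraction date (adjusted p = 0.0404). In fl26 minus svb9 it was 0.77 ± 0.31 and the other probe 0.70 ± 0.14, neither past the threshold (adjusted p = 0.999993 each). Ly6c1 shares near-identical sequence with its neighbour Ly6c2, for which no probe was named, so the probes may read both genes.

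No other adhesion or junction gene passed the test. Cd93, a C-type lectin-like glycoprotein of angiogenic endothelium, read 0.58 and 0.17 in fl26, -0.06 and -0.17 in svb9 and 0.04 and -0.40 in old wild type. Its fl26 arrays were above the other 4, but neither the fl26 mean (0.38 ± 0.14, adjusted p = 0.444) nor fl26 minus svb9 (0.49 ± 0.20, adjusted p = 0.999993) passed, and its dimmer probe stayed between -0.09 and 0.08 on all arrays. Cdh5, which encodes the junction protein VE-cadherin, read 0.51 and -0.01 in fl26, 0.18 and 0.09 in svb9 and 0.02 and -0.30 in old wild type. Cd34, a sialomucin of capillaries and stromal progenitors, read 0.69 and -0.29 in fl26, 0.09 and -0.14 in svb9 and -0.06 and -0.11 in old wild type, so that its fl26 arrays lay on both sides of every other array.

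Pecam1, the adhesion molecule CD31, stayed between -0.17 and 0.18 on all arrays. Cldn5, the tight junction claudin of endothelium, stayed between -0.20 and 0.12, and Icam2, a leukocyte ligand, between -0.07 and 0.15. Emcn, an anti-adhesive mucin of capillaries and veins, read 0.44 and -0.01 in fl26, 0.16 and -0.03 in svb9 and -0.04 and -0.41 in old wild type. Esam, a junction adhesion molecule, read -0.13 and -0.11 in fl26, -0.24 and -0.09 in svb9 and 0.69 and 0.05 in old wild type, where its red signal was not well above background on either array. None of these probes passed the test in any comparison.

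VEGF and angiopoietin receptors gave no call. Flt1, the VEGF receptor that also acts as a decoy, read 0.14 and -0.63 in fl26, -0.34 and -0.36 in svb9 and -0.27 and -0.54 in old wild type. The fl26 arrays lay on both sides of the other 4, and svb9 and old wild type were below young wild type on every array. Means were -0.35 ± 0.18 in svb9 (adjusted p = 0.979) and -0.40 ± 0.18 in old wild type (adjusted p = 0.445). In old wild type the red signal was not well above background on either array. The 3 dimmer Flt1 probes differed among themselves. In old wild type they read -0.22 and -0.10, 0.36 and 0.22, and 0.05 and -0.24. In svb9 they read, in the same order, -0.04 and -0.01, -0.14 and 0.05, and -0.23 and -0.18.

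Kdr, the main signalling VEGF receptor, read 0.26 and -0.15 in fl26, -0.05 and -0.21 in svb9 and 0.11 and -0.45 in old wild type, a mixed pattern within each group except svb9. Tek, the angiopoietin receptor Tie2, read 0.23 and -0.13 in fl26, 0.05 and 0.00 in svb9 and 0.24 and -0.05 in old wild type. Its partner Tie1 and the lymphatic VEGF receptor Flt4 were close to background, and their ratios lay between -0.12 and 0.19 without a test. Ptprb, the phosphatase VE-PTP that restrains Tek, read 0.15 and 0.15 in fl26, -0.10 and -0.49 in svb9 and -0.03 and -0.68 in old wild type. It was above young wild type on both fl26 arrays and below it on the other 4, but no mean passed: 0.15 ± 0.17 in fl26 (adjusted p = 0.812), -0.29 ± 0.17 in svb9 (adjusted p = 0.979), -0.35 ± 0.17 in old wild type (adjusted p = 0.471) and 0.44 ± 0.24 in fl26 minus svb9 (adjusted p = 0.999993).

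Acvrl1 and Eng, the BMP receptor pair of endothelium, stayed between -0.15 and 0.07 on every array. Robo4, a guidance receptor that stabilises vessels, read 0.25 and -0.34 in fl26, -0.14 and -0.12 in svb9 and -0.09 and -0.23 in old wild type. Calcrl, the adrenomedullin receptor, read 0.78 and 0.12 in fl26, 0.36 and 0.01 in svb9 and 0.13 and 0.11 in old wild type. It was above 0 on all 6 arrays, with fl26 array 1 highest, and the fl26 mean was 0.45 ± 0.16 (adjusted p = 0.441), against 0.18 ± 0.16 in svb9 (adjusted p = 0.979). On old wild type array 1 the red signal of Calcrl was not well above background. A second Calcrl probe, too dim to be tested, stayed between -0.07 and 0.03 on all arrays.

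Ramp2, which gives Calcrl its affinity for adrenomedullin, showed how single arrays can carry a ratio. Its brightest probe read 0.15 and 0.30 in fl26, 0.06 and -1.47 in svb9 and -0.39 and 0.52 in old wild type, and its other probe 0.53 and 0.19, -0.04 and 0.13, and -0.23 and -0.07. The low svb9 value was seen on the brightest probe alone. Young wild type itself differed between arrays on that probe: its green level (log2 intensity) was 9.59 to 9.65 on the arrays numbered 1 and 10.68 to 10.82 on those numbered 2, while red was 9.74 and 11.12 in fl26, 9.71 and 9.21 in svb9 and 9.25 and 11.25 in old wild type. Ramp2 therefore led fl26 minus svb9 in size, at 0.93 ± 0.51 (adjusted p = 0.999993), falling to 0.17 without svb9 array 2.

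A split of young wild type by array number was common. Of the 37 members, 9 had all number 2 green levels above all number 1 levels (Cav1, Cd34, Cdh5, Kdr, Mmrn1, Ptprb, Ramp2, Stab1 and Thbd), where 18.5% of all genes did. In 5 they were all below (Cldn5, Egfl7, Eng, Gpihbp1 and Stab2), where 17.4% of all genes did. The member shares, 24.3% and 13.5%, lay near these. The labels do not say whether arrays of the same number were hybridized with one and the same green RNA.

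Of the secreted members, Angpt2 and Egfl7 were above 0 on both fl26 arrays. Angpt2, the Tek ligand released by activated endothelium, read 0.31 and 0.58 in fl26, 0.35 and 0.02 in svb9 and -0.20 and 0.47 in old wild type. Its fl26 mean was 0.45 ± 0.17 (adjusted p = 0.456), and the groups overlapped. Egfl7 (chromosome 2), a secreted factor of growing vessels, read 0.23 and 0.59 in fl26, -0.01 and 0.27 in svb9 and 0.14 and 0.27 in old wild type, with fl26 array 2 the highest and fl26 array 1 within the range of the rest. The fl26 mean was 0.41 ± 0.12 (adjusted p = 0.327), called only with the replicate block (adjusted p = 0.0345). Its red levels (log2 intensity) were close on the fl26 arrays, 7.29 and 7.30, while green was 7.05 and 6.71.

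Vwf, the clotting factor stored by endothelium, differed by probe. The brightest read 0.45 and -0.29 in fl26, -0.04 and -0.20 in svb9 and -0.20 and 0.03 in old wild type, whereas the next probe read 0.48 and 0.32, 0.02 and -0.00, and -0.16 and 0.12. The fl26 mean of that second probe was 0.40 ± 0.09 (adjusted p = 0.288). Mmrn2, an endothelial matrix protein that binds CD93, read 0.34 and -0.01 in fl26, -0.04 and -0.29 in svb9 and -0.25 and -0.48 in old wild type. It was lowest in old wild type on average, at -0.36 ± 0.12 (adjusted p = 0.331), and that fall was called only with the replicate block (adjusted p = 0.0349). The red signal of Mmrn2 was not well above background on old wild type array 1.

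**Figure D4:**
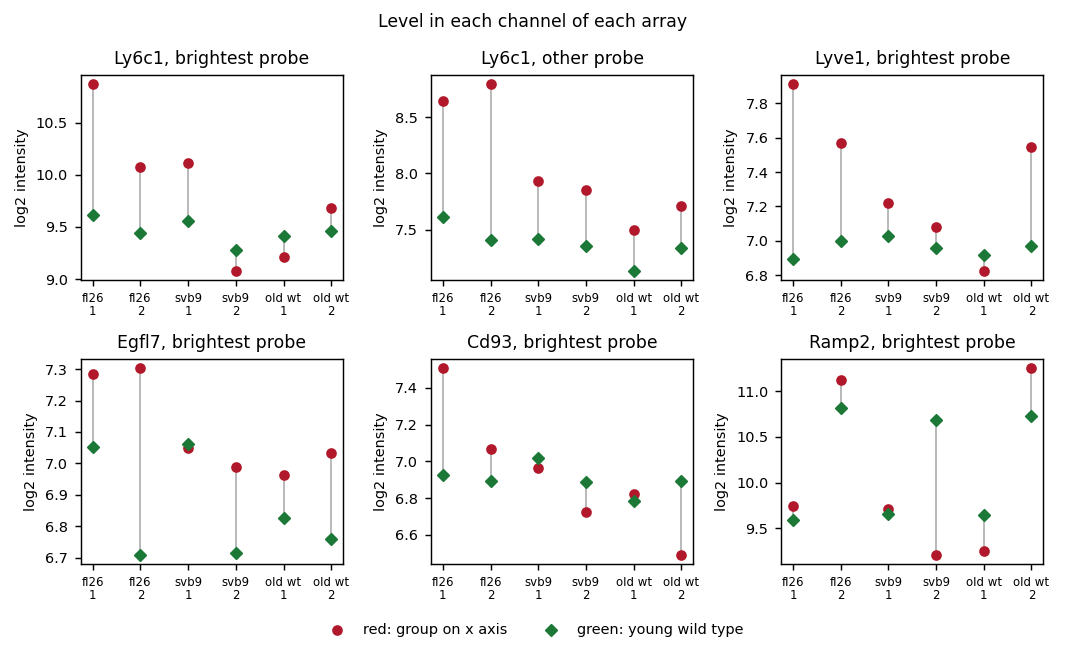
Normalized log2 intensity (y axis, a separate scale in each panel) of the group in red and of young wild type in green on each array (x axis, group and replicate) for 6 member probes, with a grey line joining both channels of an array. Red exceeds green on every array for the other Ly6c1 probe, whose red signal on old wild type array 1 was not well above background. For Ramp2 the green level itself changes from about 9.6 on number 1 arrays to 10.7 on number 2 arrays.

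Cav1 and Thbd were split between the fl26 arrays. Cav1, the structural protein of caveolae, read 0.38 and -0.51 in fl26, 0.14 and -0.08 in svb9 and 0.00 and -0.85 in old wild type. Thbd, the anticoagulant thrombomodulin, read 0.62 and -0.67 in fl26, 0.14 and -0.34 in svb9 and -0.11 and -0.62 in old wild type. In each group array 1 was above array 2 on these probes of both genes, and no mean passed the test. The dimmer Cav1 probe read 0.37 and -0.21 in fl26, -0.01 and 0.03 in svb9 and 0.18 and -0.08 in old wild type. Its red signal was well above background on 2 arrays of 6. Plvap, which forms the diaphragms of fenestrated endothelium, stayed between -0.21 and 0.19, Gpihbp1, the capillary carrier of lipoprotein lipase, between -0.23 and 0.20, and Nos3, the endothelial nitric oxide synthase, between -0.15 and 0.03. Nos3 was not well above background in red on any array.

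No endothelial transcription factor passed the test. Erg, the ETS factor of endothelium, read 0.32 and -0.12 in fl26, -0.06 and -0.00 in svb9 and -0.13 and -0.27 in old wild type. The SOXF factor Sox18 read 0.38 and 0.05 in fl26, -0.02 and 0.06 in svb9 and -0.01 and -0.08 in old wild type. Sox17 stayed between -0.21 and 0.07 and Sox7 between -0.33 and 0.15, with both lowest in old wild type, where neither was well above background in red.

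Because Egfl7 and Ly6c1 were among the fl26 values most apart from young wild type, and ETS factors are known to act at endothelial promoters, one promoter of each is shown from the RefSeq table (GRCm38.p6), from 250 bases before to 50 after the start. Capitals mark CNGGAAG, an ETS-type motif searched on both strands.
Egfl7 chr2:26583615-26583914 (plus strand): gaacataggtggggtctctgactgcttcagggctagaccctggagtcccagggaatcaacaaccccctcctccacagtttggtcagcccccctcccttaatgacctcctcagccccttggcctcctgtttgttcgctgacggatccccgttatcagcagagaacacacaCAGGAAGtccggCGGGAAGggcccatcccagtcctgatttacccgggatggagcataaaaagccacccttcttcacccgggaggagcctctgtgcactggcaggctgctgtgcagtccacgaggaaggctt
Ly6c1 chr15:75048788-75049087 (minus strand): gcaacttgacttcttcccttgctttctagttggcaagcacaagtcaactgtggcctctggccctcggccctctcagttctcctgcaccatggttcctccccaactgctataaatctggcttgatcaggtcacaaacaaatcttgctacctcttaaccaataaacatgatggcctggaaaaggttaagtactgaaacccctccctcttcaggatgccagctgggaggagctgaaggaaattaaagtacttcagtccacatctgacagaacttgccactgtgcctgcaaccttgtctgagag
The Egfl7 sequence holds 2 matches and the Ly6c1 sequence none. Other listed Egfl7 promoters, starting at chr2:26580833 and chr2:26586386, hold 2 and 0 matches. Another Ly6c1 promoter, at chr15:75048614, holds 0. The RefSeq table lists 27 promoters of 20 members, and 13 (48.1%) held the motif, against 10476 of 32851 promoters (31.9%). The motif ACAANG, which SOX factors bind, was in 12 of the 27 (44.4%), against 41.2% of all promoters. A match describes the letters and shows no binding.

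Among lymphatic members, Lyve1 stood out. Lyve1 (chromosome 7), a hyaluronan receptor of lymphatic endothelium and some macrophages, read 1.02 and 0.57 in fl26, 0.19 and 0.12 in svb9 and -0.09 and 0.58 in old wild type. Both fl26 arrays were above both svb9 arrays, while old wild type array 2 was level with fl26 array 2. The fl26 mean of 0.79 ± 0.17 did not pass (adjusted p = 0.266), but did with the replicate block (adjusted p = 0.0451) or the extraction date (adjusted p = 0.0272). Fl26 minus svb9 was 0.64 ± 0.25 (adjusted p = 0.999993). Its second probe was near background and read 0.01 and 0.07 in fl26, 0.06 and 0.12 in svb9 and 0.21 and 0.17 in old wild type.

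The other lymphatic genes had lower fl26 means. Prox1, the factor that specifies lymphatic identity, stayed between -0.10 and 0.08 and was above background in red on 1 array of 6. Pdpn, the mucin podoplanin, read 0.09 and 0.10 in fl26, -0.07 and 0.08 in svb9 and 0.29 and 0.18 in old wild type, where its red signal was not well above background on either array. The dimmer Pdpn probe read 0.29 and 0.10 in fl26, -0.06 and 0.09 in svb9 and -0.13 and 0.13 in old wild type. Mmrn1, a matrix protein of lymphatic endothelium and platelets, stayed between -0.09 and 0.08. The scavenger receptors of sinusoidal and lymphatic endothelium also differed: Stab1 read 0.71 and -0.27 in fl26, 0.12 and -0.18 in svb9 and 0.11 and -0.03 in old wild type, and Stab2 0.03 and 0.19, -0.06 and 0.17, and -0.05 and -0.10.

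Fl26 and svb9 were then set against each other, in which the dye is the same. The members' median difference was 0.11, with 34 of 37 above 0, beside 0.01 and 52.4% over all genes. Both fl26 arrays were above both svb9 arrays for 12 members (Cd93, Cldn5, Icam2, Ly6c1, Lyve1, Mmrn2, Nos3, Pdpn, Prox1, Ptprb, Ramp2 and Sox17), where 13.1% of all genes were, and below them for 0, where 11.4% of all genes were. The red signal of Cd93, Cldn5, Icam2, Nos3, Pdpn, Prox1 and Sox17 was not well above background on svb9 array 2. That of Icam2, Nos3 and Prox1 was not on fl26 array 2 either. Cd93, Cldn5, Ptprb and Sox17 were above 0 on both fl26 arrays and below 0 on both svb9 arrays, though no difference passed the test. The share of all genes with these signs was not taken, so this count has no background to be read against. Cldn5 (0.01 on fl26 array 2, -0.02 on svb9 array 1) and Sox17 (0.02 and -0.03 on the same arrays) lay close to 0. The median difference was 0.03 without fl26 array 1 and 0.35 without fl26 array 2. It was 0.21 with the Feature Extraction log ratios, 0.20 with the filter on both channels, and 0.28 with median centring, where all genes had 0.13. Only fl26 array 1 and svb9 array 1 share an extraction date, and between them the median was 0.24, with 35 of 37 above 0. Several cell type marker lists given below were above 0 in fl26 minus svb9 as well. Medians were 0.34 for basal epithelium (6 of 6 above 0), 0.23 for fibroblasts (13 of 13) and 0.12 for macrophages (12 of 13). Mural cells had 0.00 (6 of 12) and luminal epithelium 0.02 (5 of 8), and the other lists lay between 0.01 and 0.18.

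In old wild type the members' median lay close to that of all genes. The old wild type values with the largest size among members of 1 sign on both arrays were those of Flt1, Esam, Thbd, Mmrn2 and Ptprb. Of these, Thbd, Mmrn2 and Ptprb were well above background in red on array 2 only. In all, 24 of 39 members were not well above background in red on either array, Flt1 and Esam among them. The old wild type level of those 24 is known only as a bound, and no tested ratio among them passed. With each array centred on its median in place of loess, the all-gene median in old wild type moved to -0.65 and the members' median to -0.35, so that members then lay 0.30 above all genes, against 0.01 below them with loess. Within extraction dates, the members' median was 0.01 for old wild type array 1 minus fl26 array 2 (19 of 37 above 0) and -0.05 for old wild type array 2 minus svb9 array 2 (14 of 37).

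Other genes of vessel growth were taken from a list of 42 ligands, receptors and transcription factors that are no members, of which 40 were tested. None was called in any comparison, in either direction. Their median was 0.15 and -0.04 on the fl26 arrays, and 26 of 40 group means were above 0. Vegfa, the main VEGF receptor ligand, had group means of 0.09 (fl26), 0.03 (svb9) and 0.10 (old wild type). Adm, the adrenomedullin that binds Calcrl and Ramp2, had 0.46, 0.35 and 0.22, and the flow-responsive factor Klf2 had -0.85, -0.71 and -0.65. The old wild type value of Klf2 is that of array 2 alone, as array 1 gave none.

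Several lists of other cell type markers were also above 0 on fl26 array 1, and their part in the member values was not tested. The fibroblast list (13 of 13 tested) stood at a median of 0.73 and -0.09 on the fl26 arrays, 0.22 and -0.06 in svb9, and 0.00 and -0.16 in old wild type. The macrophage list (13 of 13 tested) had 0.36 and 0.07 in fl26, 0.09 and 0.01 in svb9, and 0.03 and 0.05 in old wild type. Its summed intensity was 4061 and 3571 in fl26, 2817 and 3024 in svb9 and 2374 and 3477 in old wild type, against 2457 to 3143 in young wild type. Divided by the green sum of the same array, these were 1.65 and 1.21, 1.14 and 0.999, and 0.91 and 1.11. Of these 13 genes, 1 was well above background in red on old wild type array 1. The mural cell list (12 of 12 tested) had 0.16 and -0.23 in fl26, 0.18 and -0.11 in svb9, and 0.01 and -0.19 in old wild type. The basal epithelium list (6 of 6 tested) had 0.59 and 0.29 in fl26, -0.13 and 0.07 in svb9, and -0.10 and -0.23 in old wild type.

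The luminal epithelium list (8 genes) ran the other way on fl26 array 1, with a median of -0.31 and 1 of 8 genes above 0, while fl26 array 2 had 0.17. It had -0.13 and 0.10 in svb9 and 0.28 and 0.20 in old wild type. The remaining lists had medians on fl26 array 1 of 0.20 for adipocytes, 0.08 for T, NK and B cells, 0.07 for red blood cells and -0.04 for platelets and megakaryocytes. On fl26 array 2 they had -0.02, 0.02, 0.22 and 0.02 in that order.

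Of the macrophage markers, Lyz2, which encodes lysozyme, read 1.11 and 0.46 in fl26 and Folr2, a marker of resident macrophages, 0.42 and 0.27, while Adgre1, which encodes F4/80, read 0.67 and -0.13 and Cd68 0.10 and -0.14. The monocyte and neutrophil list (6 of 8 tested) had medians of 0.14 and 0.04 in fl26, 0.02 and 0.02 in svb9, and -0.07 and 0.10 in old wild type. In red, Cd14 and Plac8 were well above background on 5 arrays, Fcgr3 on 4, Ccr2 on 3, and S100a9 and Itgam on 2. S100a8, a neutrophil gene whose probe was not tested, was so on 0 arrays. For comparison, the summed intensity of the members was 10100 and 8919 in fl26, 7960 and 6833 in svb9 and 6894 and 8537 in old wild type, against 7230 to 8673 in young wild type. Divided by the green sum of the same array, these were 1.38 and 1.04, 1.08 and 0.82, and 0.95 and 0.98. Only 3 of the 37 summed members were well above background in red on old wild type array 1. The sum on svb9 array 2 includes the low value of the brightest Ramp2 probe. None of the 10 cell type lists had a called gene in any comparison.

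**Figure D5:**
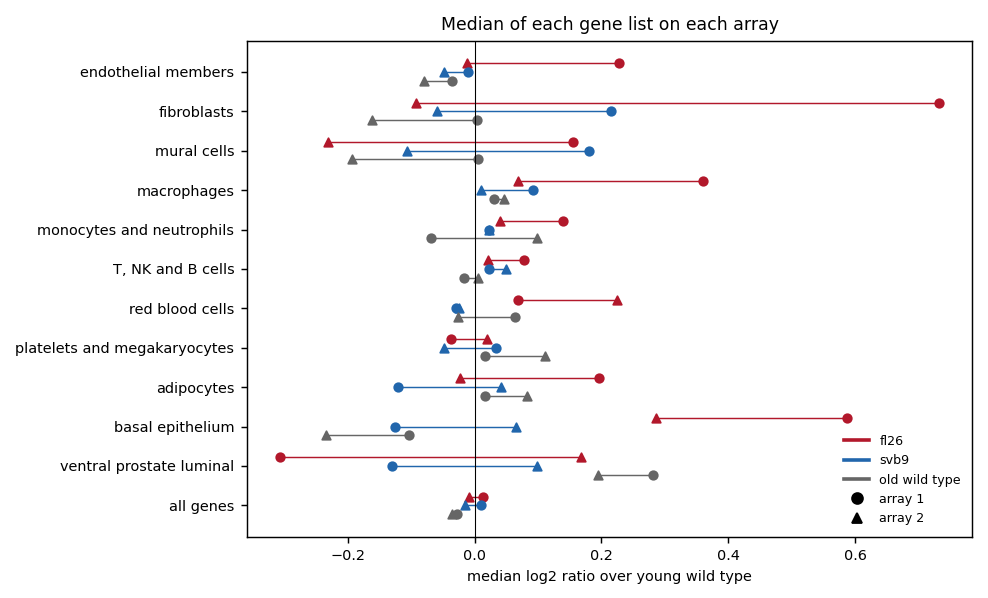
Median log2 ratio over young wild type (x axis) of each gene list (rows) in fl26, svb9 and old wild type, with a circle for array 1 and a triangle for array 2 joined by a line. On fl26 array 1 fibroblasts (0.73), basal epithelium (0.59), macrophages (0.36) and endothelial members (0.23) all lie to the right of fl26 array 2, and luminal epithelium (-0.31) to the left of it.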

How the data were processed

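Scans were read with Agilent Feature Extraction (A.7.5.1), as the headers record. Per the file headers, each deposited intensity is a raw mean of a spot, with its background, in both channels. The deposited series table holds log10 ratios of red over green that equal that software's to within 0.005; expressed as log2 they served as an alternative.

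Control spots (2256 of 43790) and outlier spots were left out. In R 4.3.3 with limma 3.58.1, background was corrected by normexp (offset 50), arrays were normalized by loess, and spots of a probe were averaged. Levels of single channels were taken after Aquantile scaling. A probe was tested (27858 were) if in some group both arrays showed it well above background, in one and the same channel. Names came from RefSeq (GRCm38.p6) for 20829 probes, of which 113 through an accession. Group means of all 6 arrays were tested 2-sided with limma, adjusted by Benjamini-Hochberg. Each list was described by counts and its median. Simulated data served to test the fit.

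The labels do not describe the replicate numbers as a pairing, but deviations from the group means of arrays with equal numbers correlated (fl26 with svb9 0.59, fl26 with old wild type 0.35, svb9 with old wild type 0.19). Calls that change with a replicate block are therefore given both ways. Extraction dates in the file headers, 3 in all, pair fl26 and svb9 array 1, fl26 array 2 with old wild type array 1, and svb9 array 2 with old wild type array 2. Named genes are all members, in each comparison the 5 of largest size with 1 sign on both arrays (between the lines: no overlap), called members, and Ly6c1, Lyve1, Egfl7 and Cd93. Members and lists were chosen with earlier results of these data known. One gene of the luminal prostate marker list is not reported here.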

Additional observations from a re-analysis of the deposited data

How the results depend on the processing

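Leaving out any of the 6 arrays in turn left 0 called member probes in fl26, as did no background correction (0), median centring (0), the deposited Feature Extraction log ratios (0) and a fit to the group's own arrays (0); the Ly6c1 probe kept a log2 ratio of 1.01 to 1.48 over these and all other alternatives, with adjusted p from 0.00313 to 0.999604. With the replicate block 4 member probes were called in fl26 (Egfl7, Lyve1 and both of Ly6c1) and 1, lower, in old wild type (Mmrn2); with the extraction date 3 were called in fl26. The replicate block changed no other call among the members. Over all probes called, the count in fl26 was 14, against 1166 with the replicate block and 225 with the date, in old wild type 0 against 1492 and 15, in svb9 0 against 66 and 0, and in fl26 minus svb9 0 against 11 and 8.

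The members' median ranged from -0.01 to 0.23 in fl26, -0.049 to -0.011 in svb9, -0.079 to -0.035 in old wild type and 0.031 to 0.35 in fl26 minus svb9 when arrays were left out. In old wild type it was -0.0094 with no background correction, -0.35 with median centring, -0.084 with the deposited log ratios and -0.082 with probes above background in both channels of both its arrays (3 members). Signs reversed for Lyve1 in svb9 with the extraction date (-0.031), for Esam (-0.17), Lyve1 (-0.32), Egfl7 (-0.29) and Ly6c1 (-1.96 and -0.48) in old wild type with median centring, and, without 1 array of the group, for Ly6c1 (-0.19 to 0.55) and Egfl7 (-0.011 to 0.27) in svb9 and Ly6c1 (-0.20 to 0.22), Lyve1 (-0.090 to 0.58) and Cd93 (-0.40 to 0.039) in old wild type. The cause was not tested. Red signal over background limits old wild type, where 24 of 39 members were not well above it on either array.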
